A study of Homo sapiens with 2 samples.

Results

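The 10 genes described here were chosen by name from the 33538 genes listed in both count tables. They are the interferon ligands *IFNB1*, *IFNL1*, *IFNL2*, *IFNL3*, and *IFNE*, and the receptor chains *IFNAR1*, *IFNAR2*, *IFNGR1*, *IFNLR1*, and *IL10RB*. Their transcripts were counted by scRNA-seq in HCT116, a human colon cancer cell line, in 1 library of 1783 mock-treated cells and 1 library of 1751 DAC-treated cells. DAC (decitabine), a deoxycytidine analog, is built into DNA and traps DNA methyltransferases. The DAC-treated library was made from cells of day 7 of the culture, after doses of 0.5 μM on day 1 and again on day 3 and a change to drug-free medium on day 5. Each condition was a single library of a single cell line, so cells did not count as replicates and the conditions were compared without a test.

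Interferons are secreted proteins that warn cells of viral nucleic acid. Type I interferons, which include interferon beta (*IFNB1*) and interferon epsilon (*IFNE*), bind a receptor made of IFNAR1 and IFNAR2. Type III interferons, the interferon lambdas (*IFNL1*, *IFNL2*, and *IFNL3*), act mainly on epithelial cells through IFNLR1 paired with IL10RB, a chain that also serves the receptors of IL-10 and IL-22. Interferon gamma binds IFNGR1 paired with IFNGR2. *IFNB1* and the lambda genes are normally silent and are switched on by IRF and NF-κB transcription factors after double-stranded RNA or foreign DNA is sensed, whereas *IFNE* is expressed in some epithelia without infection. Type I and type III receptors pass their signal through JAK1, TYK2, and IRF9 to the same interferon-stimulated genes.

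The mock-treated library contained 49911689 UMIs and the DAC-treated library contained 59046165 UMIs. A UMI (unique molecular identifier) marks 1 captured transcript near its poly(A) tail, so values were not scaled by gene length. Levels are given as UMIs summed over a library per 1000000 UMIs of that library (CPM), and ratios are those of CPM in DAC-treated to mock-treated cells. Intervals are exact 95% intervals and cover counting error only. All 10 epithelial markers had UMIs in both libraries, with a summed level of 5066 CPM in mock-treated and 8020 CPM in DAC-treated cells. The keratins *KRT18*, *KRT8*, and *KRT19* gave most of it, and the markers did not differ in 1 direction, with 2 at a ratio of 2 or more, 2 at 0.5 or less, and a median log2 ratio of 0.30. The 11 markers of immune, fibroblast, and endothelial cells summed to 11.2 and 22.9 CPM, most of it from *COL1A1* with 533 and 1112 UMIs. Of these markers, 9 had a CPM ratio of 2 or more, against 21.4% of all genes with a UMI, and their median log2 ratio was 2.08. At 0 in mock-treated cells and detected in DAC-treated cells were 5 of the 11, against 12.8% of all listed genes, among them *CLEC4C*, a marker of the interferon-producing plasmacytoid dendritic cell, with 0 and 8 UMIs, and *PTPRC*, a leukocyte marker, with 0 and 16 UMIs. Both libraries held 12 barcodes in common.

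Because DAC acts on methylation at CpG sites, upstream sequences are shown for *IFNL1* and *IFNE*, whose levels differed most. They are also shown for *IFNB1*, which was not detected, and for *IFNLR1*, the receptor chain with the highest CPM ratio over all deposited cells. Each window covers 250 bases before and 50 bases after the RefSeq transcription start (GRCh38.p14), is written from 5′ to 3′ on the strand of the gene, and has its CpG sites in capitals. The windows lie at chr19:39296157-39296456 on the plus strand for *IFNL1*, chr9:21077893-21078192 on the minus strand for *IFNB1*, chr9:21482264-21482563 on the minus strand for *IFNE*, and chr1:24187240-24187539 on the minus strand for *IFNLR1*.
IFNL1: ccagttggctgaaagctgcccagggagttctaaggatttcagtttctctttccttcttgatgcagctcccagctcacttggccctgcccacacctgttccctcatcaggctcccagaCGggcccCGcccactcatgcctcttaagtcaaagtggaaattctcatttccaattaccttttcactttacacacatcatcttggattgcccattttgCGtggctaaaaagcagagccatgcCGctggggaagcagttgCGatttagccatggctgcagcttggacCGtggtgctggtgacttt
IFNB1: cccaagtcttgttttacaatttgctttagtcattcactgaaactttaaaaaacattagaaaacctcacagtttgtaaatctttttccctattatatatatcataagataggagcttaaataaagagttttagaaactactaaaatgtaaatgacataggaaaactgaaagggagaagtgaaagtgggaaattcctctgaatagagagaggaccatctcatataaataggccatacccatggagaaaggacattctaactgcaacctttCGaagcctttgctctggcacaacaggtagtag
IFNE: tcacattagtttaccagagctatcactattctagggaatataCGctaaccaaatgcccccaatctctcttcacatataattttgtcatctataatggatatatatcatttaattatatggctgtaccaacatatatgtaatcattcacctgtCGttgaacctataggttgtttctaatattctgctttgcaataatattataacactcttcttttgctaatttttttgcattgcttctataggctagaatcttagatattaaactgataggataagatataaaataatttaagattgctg
IFNLR1: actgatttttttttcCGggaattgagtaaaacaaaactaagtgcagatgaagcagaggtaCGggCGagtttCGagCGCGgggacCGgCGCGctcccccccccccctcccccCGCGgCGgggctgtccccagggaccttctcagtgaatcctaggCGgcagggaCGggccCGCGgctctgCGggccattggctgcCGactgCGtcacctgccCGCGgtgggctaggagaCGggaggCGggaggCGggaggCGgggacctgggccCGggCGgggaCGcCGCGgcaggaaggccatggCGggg

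The windows of the ligands had few CpG sites. The *IFNL1* window had 6 CpG sites, the *IFNE* window had 2, and the windows of *IFNB1* and *IFNL2* had 1 each, against a median of 14 over the 35116 windows of all genes. All windows found for receptor chains were above this median, with 31 CpG sites for *IFNLR1* and 25 for *IL10RB*. A window was found for 9 of the 10 genes, all but *IFNAR2*. An IRF-type element, written as GAAA, any 2 bases, and GAAA, was searched on both strands. It matched the *IFNL1* window in 2 overlapping places, from -214 to -205 and from -208 to -199 relative to the start. The *IFNL2* window and the first of the *IFNL3* windows had 1 match each, from -176 to -167, and 3.57% of all windows had at least 1. An NF-κB-type element, written as GGGA, any 4 bases, and CC, matched the *IFNB1* window once, from -66 to -57, and was present in 25.6% of all windows. It also matched the windows of *IFNL2* and *IFNLR1* in 2 places each, the windows of *IFNL3* in 2 and 1, those of *IFNGR1* in 3 and 1, and the *IL10RB* window in 1. The *IFNL1* window had no NF-κB-type match, and the *IFNE* window had neither element.

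Among the interferon genes that are switched on by nucleic acid sensing, transcripts of *IFNL1* were the main ones seen, and they were seen in DAC-treated cells. *IFNL1* (ENSG00000182393, chromosome 19, 39296407 to 39298673) gave no UMI in the mock-treated library and 14 UMIs in the DAC-treated library (95% confidence interval 7.65 to 23.5). The DAC-treated UMIs came from 12 cells (0.685%, 95% confidence interval 0.355 to 1.19%), of which 10 had 1 UMI and 2 had 2 UMIs. Set against a floor of 3 counts over the mock-treated library, the CPM after DAC was at least 3.94-fold higher, a value that leaves out the counting error of the 14 UMIs. On the log2 scale it was 1.98, and 1.67 without cells below 10000 UMIs or above 50% mitochondrial UMIs. *IFNL2*, on the same chromosome (39268396 to 39270188), had a single transcript in all, with 0 mock-treated UMIs and 1 DAC-treated UMI. *IFNL3*, from 39243455 to 39245250, and *IFNB1*, on chromosome 9 from 21077104 to 21077942, had 0 UMIs in both libraries. By the floor of 3 counts, these zeros allow a share of up to 0.168% of mock-treated cells and 0.171% of DAC-treated cells with a UMI, and the upper ends of their exact 95% intervals were 0.207% and 0.210%, so lower levels were not detectable at this depth. Because the longest transcripts of *IFNL2* and *IFNL3* were 98.0% identical over 951 aligned bases, reads of these genes can be lost or moved between them, whereas *IFNL1* was 78.9% identical to *IFNL2*.

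*IFNE* (ENSG00000184995, chromosome 9 from 21480839 to 21482313) was detected in both conditions. The 19 UMIs of the mock-treated library came from 19 cells (1.07%, 95% confidence interval 0.643 to 1.66%) and the 75 UMIs after DAC from 70 cells (4.0%, 95% confidence interval 3.13 to 5.02%). The levels were 0.381 CPM and 1.27 CPM, a ratio of 3.34 (95% confidence interval 2.0 to 5.85), and no cell had more than 2 UMIs. The annotated region of *IFNE* lies within that of the long non-coding RNA *MIR31HG* on the same strand, so reads of *MIR31HG* can be included. The other interferon genes were all but absent. Of the 16 other type I and type II interferon genes listed, 14 had no UMI in either library, and *IFNA1* and *IFNA6* had 1 UMI each in DAC-treated cells.

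**Figure D1:**
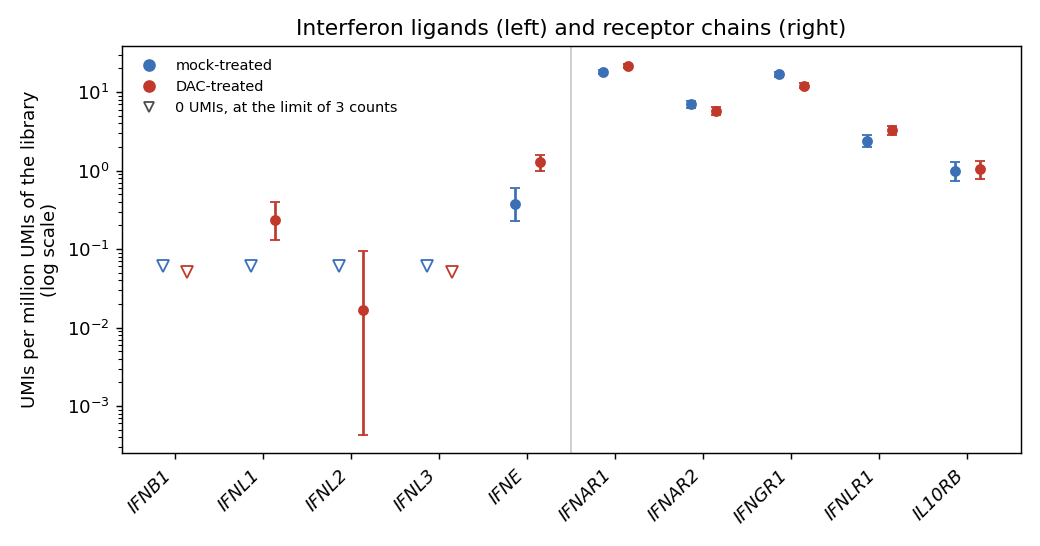
Level of each ligand (left of the line) and receptor chain (right) in mock-treated (blue) and DAC-treated (red) cells, in CPM on a log axis. Points are library sums with exact Poisson 95% intervals and open triangles mark genes at 0 UMIs, drawn at the limit of 3 counts. *IFNL1* and *IFNE* were higher in DAC-treated cells, and the receptor chains differed by less than the distance between most of the chains.

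In all, 8 of the 10 genes had a UMI in at least 1 library, and 2 of these 8, *IFNL1* and *IFNE*, had a CPM ratio of 2 or more. Over all genes with a UMI in either library, 21.4% had such a ratio, so this count was near the background. None of the 8 had a ratio of 0.5 or less, against 7.22% of all such genes. Wherever given, these shares are over the 25429 genes with a UMI in either library, of which 21034 had enough UMIs for a ratio. Among the genes with a ratio, both shares would be higher. A UMI in DAC-treated cells with none in mock-treated cells was found for 2 of the 10 genes, *IFNL1* and *IFNL2*, and for 12.8% of all listed genes.

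The DAC-treated cells with a lambda transcript were a small group with high and low levels of interferon-stimulated genes. UMIs of *IFNL1* or *IFNL2* were present in 13 cells (0.742% of DAC-treated cells), and no cell had both. By total UMIs, the DAC-treated cells were split into a shallow, a middle, and a deep group of about equal size, and the 13 cells fell 0, 8, and 5 in these 3 groups. Their total UMIs ranged from 20544 to 70021, and 2 of them had more than 50% mitochondrial UMIs. All 13 cells had UMIs of the epithelial keratin *KRT18*, 12 had UMIs of the epithelial marker *EPCAM*, 1 had a UMI of *PTPRC*, and 0 had a UMI of *CLEC4C*. None of the 13 barcodes was among those that the libraries shared. The part of free RNA in the droplets was not tested. A cell type that should not express these genes, against which free RNA could be measured, is not present in a culture of a single line.

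Interferon-stimulated genes were measured as the UMIs of 40 such genes in percent of the UMIs of a cell. In mock-treated cells, this share had a median of 0.0318% and a highest value of 0.490%. In the 1738 DAC-treated cells without *IFNL1* or *IFNL2*, it ranged from 0 to 2.72% with a median of 0.201%, and in the 13 cells with a lambda transcript it ranged from 0.0940% to 1.73% with a median of 0.672%. The ranges overlapped, and the 13 cells were spread over much of the range of the others. The cells with 2 UMIs of *IFNL1* had 1.73% and 1.55%, above 99.5% and 99.2% of all DAC-treated cells. The cell at 1.73% had 50.9% mitochondrial UMIs and the cell at 1.55% had 16.8%. A further 4 cells, each with 1 UMI of *IFNL1*, had 1.51%, 1.35%, 1.34%, and 1.06%. These 6 of the 12 *IFNL1* cells were among the 88 cells in the top 5% of DAC-treated cells, and the other 82 cells of that top 5% (93.2%) had no lambda UMI. The lowest values were 0.150% and 0.130% in cells with *IFNL1* and 0.0940% in the cell with *IFNL2*, and 3 of the 13 cells were below the median of all DAC-treated cells. The difference of the medians was 0.471 percentage points. It was 0.166 without the cells below 10000 UMIs or above 50% mitochondrial UMIs, which leaves 11 cells with a lambda transcript. In the middle group, the medians were 0.867% in 8 cells with a lambda transcript and 0.208% in 576 cells without one. In the deep group, they were 0.356% in 5 cells and 0.231% in 578 cells, a difference of 0.124.

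**Figure D2:**
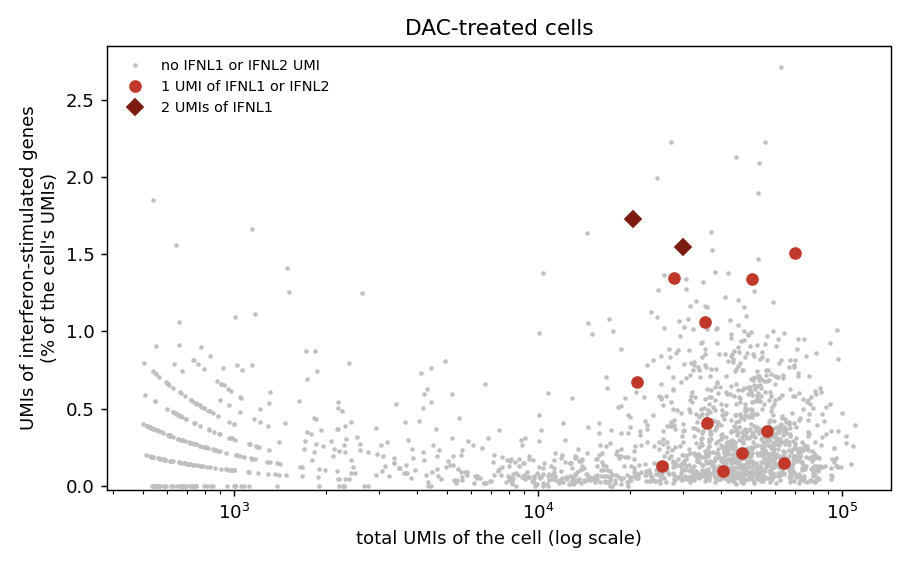
Each point is a DAC-treated cell, with its total UMIs on a log axis and the share of its UMIs from the 40 interferon-stimulated genes in percent. Cells with 1 UMI of *IFNL1* or *IFNL2* are circles and those with 2 UMIs of *IFNL1* are diamonds. The 13 marked cells lie between 0.0940% and 1.73%, and 82 cells of the top 5% carry no mark.

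The genes whose UMIs lay most in the 13 cells included members of the early antiviral response. The 13 cells held 0.889% of all UMIs of the DAC-treated library, and the share of the UMIs of a gene in these cells was divided by that value for the 12525 genes with 100 UMIs or more. *IFIT2*, an antiviral protein that binds RNA, *IFIT3*, which stabilizes IFIT1, and *OASL*, an enhancer of RIG-I signaling, were among the first 10, with values of 10.9, 8.74, and 6.94. *IFIT2* had 516 UMIs in 77 DAC-treated cells, and 50 of these UMIs were in 5 of the 13 cells, whereas 1 cell without a lambda transcript held 160 of them. *IFIT3* had 45 of its 579 UMIs in 4 of the cells, and *OASL* had 46 of its 746 UMIs in 7 of them. Without the cell that held the most UMIs of each gene, the values were 5.74, 5.83, and 4.13. The 2 cells with more than 50% mitochondrial UMIs held 37 of the 50 UMIs of *IFIT2*, 33 of the 45 UMIs of *IFIT3*, and 17 of the 46 UMIs of *OASL*. The other genes of the first 10 were *BTBD16*, *GPR20*, *SEMA3A*, *TEX15*, *NFIB*, *TTC22*, and *AC023509.4*, with values between 6.62 and 12.5. *BTBD16* and *TEX15* were each detected in 1 of the 13 cells and had a value of 0 without it, and *NFIB* had 0.834. *TTC22*, *AC023509.4*, *SEMA3A*, and *GPR20* had values of 5.03, 4.87, 3.67, and 3.61 without their top cell. Of the 30 interferon-stimulated genes with 100 UMIs or more, 27 had a value above 1 and their median was 2.43, whereas the median over all 12525 genes was 0.997 and 49.7% of them were above 1.

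Over all depths, cells with *IFNE* were close to the other DAC-treated cells in this share, but the shallow cells were not. The share of interferon-stimulated genes had a median of 0.195% in the 70 DAC-treated cells with *IFNE* and 0.202% in the 1681 cells without it. In the shallow group, the medians were 0.0367% in 7 cells with *IFNE* and 0.171% in 577 cells without it. The 7 cells had between 54.9% and 67.8% mitochondrial UMIs, against a median of 18.6% in the 577 cells. Median total UMIs were 12974 in the 7 cells and 2078 in the 577 cells, so this comparison is not at equal depth. The medians of the share of interferon-stimulated genes were 0.223% and 0.208% in the middle group and 0.205% and 0.234% in the deep group. Only 2 of the 70 cells (2.86%) were in the top 5%. In 2 cells, *IFNE* and *IFNL1* were both present. By depth, the share of DAC-treated cells with *IFNE* was 1.20%, 4.28%, and 6.52% from the shallow to the deep group, and in mock-treated cells the values were 0.168%, 1.18%, and 1.85%. Its level in DAC-treated cells went the other way, with 2.77, 1.35, and 1.10 CPM from the shallow to the deep group. In mock-treated cells it did not, with 0.220, 0.426, and 0.380 CPM, the first of these from 1 UMI.

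All 5 receptor chains were expressed in both conditions, and none differed by 2-fold. *IFNAR1* (ENSG00000142166, chromosome 21, 33324387 to 33359864) had 902 mock-treated and 1258 DAC-treated UMIs. At least 1 UMI was present in 35.8% (95% confidence interval 33.6 to 38.1%) and 40.8% (38.5 to 43.2%) of the cells, and the CPM ratio was 1.18 (95% confidence interval 1.08 to 1.29). On the log2 scale this ratio was 0.24, and it was 0.06 after median-of-ratios scaling, which lowers every log2 ratio by 0.18, and 0.49 for the mean of per-cell CPM. *IFNAR2*, the chain with the higher affinity for most type I interferons (ENSG00000159110, chromosome 21 from 33205282 to 33265675), had 350 UMIs and 341 UMIs. Its CPM ratio was 0.824 (95% confidence interval 0.707 to 0.959), with 16.8% of mock-treated and 15.8% of DAC-treated cells having a UMI. The ratio was below 1 in all 5 alternatives, from -0.46 to -0.16 on the log2 scale.

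*IFNGR1*, the ligand-binding chain of the interferon gamma receptor (ENSG00000027697, chromosome 6 from 137197483 to 137219449), was lower in DAC-treated cells. Its UMIs numbered 840 in the mock-treated and 717 in the DAC-treated library, and at least 1 UMI was present in 33.3% and 29.2% of the cells. The CPM ratio of 0.722 (95% confidence interval 0.652 to 0.798) was the lowest of the 5 chains. For the mean of per-cell CPM, *IL10RB* was lower, at -0.85 on the log2 scale. The log2 value of *IFNGR1* lay between -0.65 and -0.45 in all 5 alternatives. Its partner *IFNGR2* had 2521 and 3051 UMIs, a CPM ratio of 1.02 (95% confidence interval 0.970 to 1.08).

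The chains of the lambda receptor had the fewest UMIs. *IFNLR1* (ENSG00000185436, chromosome 1, 24154168 to 24187959) had 119 mock-treated UMIs (6.34% of cells, 95% confidence interval 5.25 to 7.57%) and 192 DAC-treated UMIs (9.48%, 95% confidence interval 8.15 to 10.9%). The CPM ratio was 1.36 (95% confidence interval 1.08 to 1.73), or 0.45 on the log2 scale. It was 0.10 when cells were thinned to 10000 UMIs, which also drops shallower cells, and 0.94 for the mean of per-cell CPM. *IL10RB* (ENSG00000243646, chromosome 21 from 33266367 to 33311420) had 49 UMIs and 61 UMIs, a CPM ratio of 1.05 (95% confidence interval 0.711 to 1.57). Its log2 ratio of 0.07 became -0.11 after median-of-ratios scaling and -0.85 for the mean of per-cell CPM, so its direction depended on the scaling. An annotated readthrough transcript, *IFNAR2-IL10RB*, shares 21.6% of the exonic bases of *IL10RB* and 14.7% of those of *IFNAR2* in GENCODE release 44. The count tables list it as AP000295.1, with 1 UMI in mock-treated and 0 UMIs in DAC-treated cells. The readthrough region ends at 33297160, within that of *IL10RB*. Since transcripts are counted near the poly(A) tail, the part of reads in shared exons can differ from the percentages of exonic bases. Reads in shared exons cannot be assigned to a single gene, so the counts of *IL10RB* and *IFNAR2* can be too low. The size of this effect was not tested.

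The order of the levels was the same in both libraries, but the distance between the first and the second chain was not. In mock-treated cells, *IFNAR1* had 18.1 CPM (95% confidence interval 16.9 to 19.3) and *IFNGR1* had 16.8 CPM (15.7 to 18.0), and their intervals overlapped. In DAC-treated cells, they had 21.3 CPM (20.1 to 22.5) and 12.1 CPM (11.3 to 13.1), and the intervals were apart. Below them came *IFNAR2* with 7.01 CPM in mock-treated and 5.78 CPM in DAC-treated cells, *IFNLR1* with 2.38 and 3.25 CPM, and *IL10RB* with 0.982 and 1.03 CPM. The intervals of these neighbors did not overlap in either library, but they do not cover reads lost in exons shared with the readthrough transcript.

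Detection of a receptor chain varied with the depth of the cell. The share of DAC-treated cells with *IFNAR1* was 6.16%, 44.3%, and 72.0% from the shallow to the deep group, and in mock-treated cells it was 9.08%, 39.2%, and 59.3%. For *IFNLR1*, the share in the deep group was 16.6% of DAC-treated cells (95% confidence interval 13.7 to 19.9%) and 10.8% of mock-treated cells (8.40 to 13.5%). Those groups had medians of 59133 and 44328 UMIs per cell, so the shares are not at equal depth. If *IFNAR1* had taken an even share of the UMIs of every DAC-treated cell, 975.6 cells would lack it, and 1036 lacked it.

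**Figure D3:**
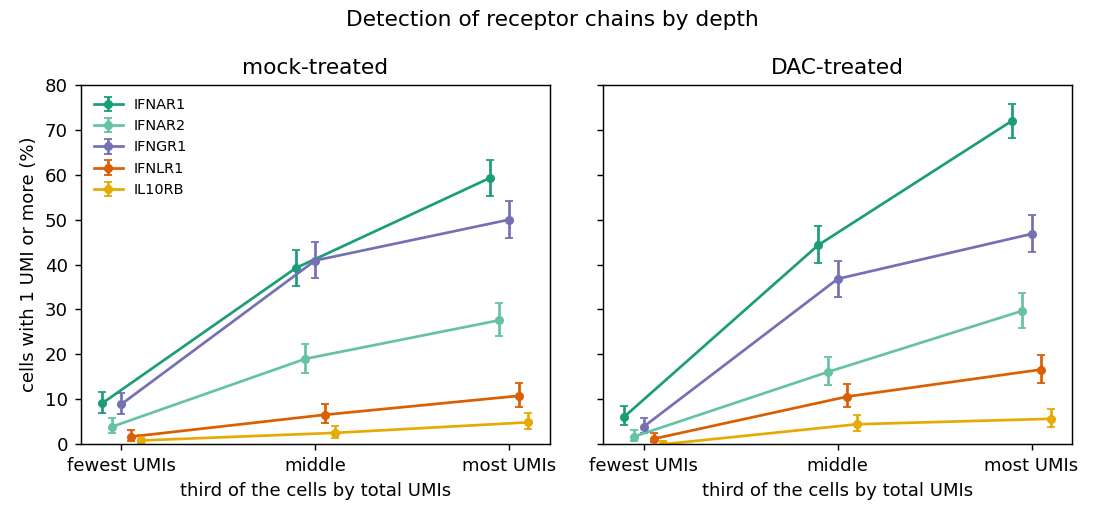
Share of cells with at least 1 UMI of each receptor chain, in percent, in 3 groups of cells by total UMIs, for mock-treated (left) and DAC-treated (right) cells, with exact binomial 95% intervals. The share of *IFNAR1* in DAC-treated cells goes from 6.16% to 72.0%, and *IL10RB* reaches 5.66% at most.

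Both chains of the type I receptor were detected in 163 mock-treated cells (9.14%, 95% confidence interval 7.84 to 10.6%) and 172 DAC-treated cells (9.82%, 95% confidence interval 8.47 to 11.3%). In the deep group of DAC-treated cells the share was 20.4%, and it was 1.16% after thinning to 10000 UMIs. Over all DAC-treated cells, *IFNAR2* was present in 24.1% of the cells with *IFNAR1* and in 10.1% of those without it. The values were 20.1% and 12.9% in the middle group of DAC-treated cells and 28.3% and 33.1% in their deep group, and 31.8% and 21.5% in the deep group of mock-treated cells, so the direction was not the same in all groups. Both lambda receptor chains were detected in 4 mock-treated cells (0.224%) and 11 DAC-treated cells (0.628%, 95% confidence interval 0.314 to 1.12%). Reads of *IL10RB* in exons shared with the readthrough transcript may be missing from these counts. Both gamma receptor chains were detected in 26.2% of mock-treated cells and 23.0% of DAC-treated cells. Of the 13 cells with a lambda transcript, 6 had a UMI of *IFNAR1*, 4 of *IFNAR2*, 1 of *IFNLR1*, 3 of *IL10RB*, and none of both lambda receptor chains. The share of interferon-stimulated genes in the deep group of DAC-treated cells had a median of 0.264% in the 97 cells with *IFNLR1* and 0.225% in the 486 cells without it. For *IFNAR1*, it was 0.229% in the 420 cells with a UMI and 0.241% in the 163 cells without one. The medians with and without a UMI were 0.257% and 0.214% for *IFNAR2*, 0.233% and 0.232% for *IFNGR1*, and 0.266% and 0.228% for *IL10RB*. The ranges of these groups overlapped.

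Many genes downstream of the receptors had a higher level in DAC-treated cells, and their ratios were above those of the receptor chains. Of the 40 interferon-stimulated genes, 33 had a CPM ratio of 2 or more and none a ratio of 0.5 or less, where 21.4% and 7.22% of all genes did, and their median log2 ratio was 2.80, against 0.34 over the 21034 genes with a ratio. Among genes of signal transduction, *IRF9*, a subunit of the complex that interferon activates and itself interferon-stimulated, had 251 mock-treated and 676 DAC-treated UMIs, a ratio of 2.28 (95% confidence interval 1.97 to 2.64). *JAK1*, the kinase shared by all 3 receptor types, had 3231 and 2870 UMIs, a ratio of 0.751, and *STAT3* had a ratio of 1.19.

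Of 11 genes that dampen interferon signaling, only *USP18*, which removes ISG15 from proteins and binds IFNAR2, had a ratio of 2 or more, where 21.4% of all genes did. It had 209 UMIs in mock-treated and 831 UMIs in DAC-treated cells (ratio 3.36, 95% confidence interval 2.88 to 3.93). The phosphatase genes *PTPN1*, *PTPN11*, and *PTPN2*, the brakes with the most UMIs, had ratios of 1.65, 1.13, and 1.05. The highest ratio below 2 among the 11 genes was 1.92, and their median log2 ratio was 0.17. Of 18 genes that act before interferon transcription, 6 had a ratio of 2 or more and 1 a ratio of 0.5 or less, where 21.4% and 7.22% of all genes did. *IRF7*, the main regulator of type I interferon amplification, went from 391 to 3707 UMIs (ratio 8.01), and *IKBKE*, an IRF kinase, from 88 to 515 UMIs (ratio 4.95). The RNA sensors *IFIH1*, *DDX58*, and *DHX58* had ratios of 4.30, 4.18, and 3.71. *CGAS*, a DNA sensor, had 0 UMIs in mock-treated and 620 UMIs in DAC-treated cells, at least 175-fold higher CPM, whereas its adaptor *TMEM173* (STING) had 653 and 331 UMIs, a ratio of 0.428. *JUN* and *IRF3*, which also act before interferon transcription, had ratios of 0.942 and 1.40. Of the 6 other chains related to the receptors, *IL10RA* and *IL22RA1* had 2 or more, with 33 and 39 UMIs in DAC-treated cells, and *IL20RB* and *IL20RA* had 0.5 or less, with 348 and 118 UMIs and 43 and 25 UMIs in mock- and DAC-treated cells. *IL10*, *IL22*, and *IL26*, the cytokines that also use IL10RB, had at most 4 UMIs in a library.

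**Figure D4:**
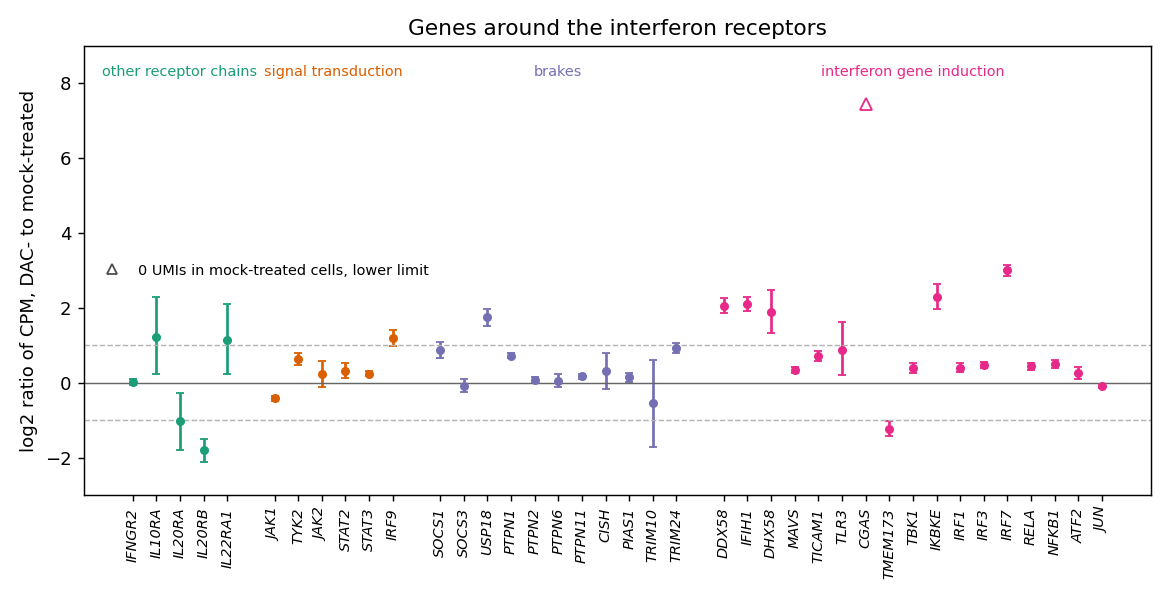
Log2 ratio of CPM in DAC-treated to mock-treated cells for genes around the receptors, with exact 95% intervals for counting error. Dashed lines mark ratios of 2 and 0.5, and the open triangle is the lower limit for *CGAS*, at 0 UMIs in mock-treated cells. *IRF7* has the highest value among the genes with UMIs in both libraries, 3.00, and *IL20RB* the lowest, -1.80.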

How the data were processed

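Libraries of mock-treated and DAC-treated HCT116 cells were made with a droplet-based 3′ kit that adds UMIs, and the authors mapped the reads to hg38 and counted UMIs with Cell Ranger. The deposited values are raw UMI counts per gene and cell. The annotation release and any filter on cells are not given in the sources used here. All deposited cells were kept, and doublets were not called. The libraries had medians of 27899 and 35340 UMIs per cell, and 395 mock-treated and 458 DAC-treated cells had fewer than 10000 UMIs.

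UMIs were summed per library and divided by the library total (CPM). Exact Poisson intervals were computed for UMIs, Clopper-Pearson intervals for shares, and exact conditional binomial intervals for ratios, all at 95% and covering counting error only. A count of 0 was compared as 3 counts over the library, and no fold was given where both libraries had 3 UMIs or fewer. A fold of 2 was used to name genes. No p-value was computed, since each condition had 1 library. The genes and lists were chosen with earlier results of these data known. Named from each pathway list were the 3 genes with the most UMIs in DAC-treated cells and any past the fold of 2 with 20 UMIs or more over both libraries. *SOD2*, whose name was repeated, was left out, *IFNL4* was not analysed here, and 1 gene of the signal transduction list is not reported here. The ratios were tested on simulated data for well-detected genes only. That simulation held no gene at 0 UMIs in mock-treated cells and none as sparse as *IFNE* or *IL10RB*.

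The alternatives were removal of cells below 10000 UMIs or above 50% mitochondrial UMIs, removal of the deepest 5% of cells, thinning cells to 10000 UMIs, median-of-ratios scaling, the mean of per-cell CPM, a fold of 1.5, cells with 2 or more lambda UMIs, an interferon-stimulated list without *IFI6*, *IFI27*, and *ISG15*, and only the deepest of 3 groups of cells. Positions and transcripts came from GENCODE release 44 and promoter windows from RefSeq. Python 3.11.15, numpy 2.4.6, scipy 1.17.1, pandas 2.3.3, and matplotlib 3.10.9 were used.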

Additional observations from a re-analysis of the deposited data

How the results depend on the processing

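Of 66 values under the alternatives, 51 stayed within their counting interval or 1.5 times their count, and 15 moved. No log2 ratio whose interval left out 0 changed sign, whereas that of *IL10RB* did, to -0.11 under median-of-ratios scaling and -0.85 where CPM was averaged over cells. The number of genes past the fold stayed at 2 for higher and 0 for lower levels in all 6 alternatives run on them. The fold was 2 in these alternatives, except in the one that set it to 1.5. Lambda transcripts were found in a share of DAC-treated cells that lay between 0.619% and 0.982%. The share with both type I receptor chains was 15.3% without cells under 10000 UMIs or over 50% mitochondrial UMIs, and 1.16% after thinning to 10000 UMIs, which left 1293 DAC-treated and 1388 mock-treated cells. The share with both lambda receptor chains was 0% after thinning. The difference in the interferon-stimulated share between cells with and without a lambda transcript was 0.166 percentage points without those shallow or mitochondrial cells, 1.44 for cells with 2 UMIs, 0.151 without *IFI6*, *IFI27*, and *ISG15*, where the medians themselves were lower (0.187% and 0.0365%), and 0.124 in the deepest of the 3 groups. The middle group had medians of 0.867% and 0.208%. The value for cells with 2 UMIs rests on 2 cells, and 1 of them had 50.9% mitochondrial UMIs. By their construction, thinning and the choice of cells change depth, and the cause of the other shifts was not tested. No paired analysis was possible because each condition had 1 library and no result came from a test.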

Other observations

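Many target genes of NF-κB, which takes part in the transcription of *IFNB1* and the lambda genes, also had higher levels in DAC-treated cells. Of 19 such genes, 11 had a CPM ratio of 2 or more and 1 a ratio of 0.5 or less, where 21.4% and 7.22% of all genes did, with a median log2 ratio of 1.54. Those given here were chosen after their values were seen. The inflammatory cytokine *TNF* had 0 UMIs in mock-treated and 164 UMIs in DAC-treated cells, at least 46.2-fold higher CPM. The chemokines *CXCL1* and *CXCL8* had 75 and 103 UMIs in mock-treated and 934 and 911 UMIs in DAC-treated cells. A single DAC-treated cell held 153 of the *CXCL8* UMIs. The chemokines *CXCL2* and *CXCL3* had ratios of 0.969 and 1.18, with counting intervals that included 1. *CCL20* had 3 and 186 UMIs, a ratio of 52.4 with a 95% counting interval of 17.7 to 256. *IER3*, an early response gene, had 63579 and 25140 UMIs, a ratio of 0.334. It had most of the UMIs of the list, whose summed level was 1406 CPM in mock-treated and 753 CPM in DAC-treated cells. The share of UMIs from these genes, to which *IER3* gave 25140 of the 44459 UMIs in DAC-treated cells, had a median of 0.0624% in the 13 cells with *IFNL1* or *IFNL2* and 0.0579% in the other 1738 DAC-treated cells, and the ranges overlapped.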
